A study of Mus musculus with 6 samples.

Results

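Gene expression of the G1/S transition and of DNA replication was followed in primary mouse muscle stem cells. The members were 43 named genes, taken from a table of 32973 genes by their symbols, and all 43 had a row. The libraries were made from sorted muscle stem cells of skeletal muscle after 3 days on collagen-coated dishes, in medium that held serum and bFGF, a growth factor that keeps these cells dividing. The Med23KO group (3 libraries) had the genotype Med23flox/flox::Pax7CreERT2, that is, loxP-flanked alleles of Med23 and a Cre recombinase that tamoxifen can activate in cells that express Pax7. The Ctrl group (3 libraries) had the genotype Med23flox/flox, without Cre. Both groups shared the flanked alleles and the culture, and the labels give neither the age of the animals nor a tamoxifen treatment. No group carried Cre without the flanked alleles, so what Cre does and what Med23 loss does cannot be told apart. The labels do not state whether each library had its own animal or culture; p-values here reflect the spread between the 6 libraries, which may be technical.

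Each chromosome has to be copied once before a cell divides. In G1 the origin recognition complex, with CDC6 and CDT1, loads the ring-shaped MCM2-7 helicase on DNA, a step called licensing, and geminin later blocks CDT1. At the start of S phase CDC45 and the GINS complex join the ring and make it an active helicase, and the polymerases, the PCNA clamp with its loader RFC, the single-strand binding protein RPA and the enzymes that join Okazaki fragments follow it. Cyclin E and the E2F transcription factors drive entry into S phase, and many replication genes are E2F targets. Muscle stem cells are quiescent in resting muscle, divide as myoblasts once they are activated or cultured, and leave the cell cycle when they differentiate.

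Expression was given as FPKM (fragments per kilobase of transcript, scaled to the fragments of the library), which allows levels of different genes to be compared per length. How many reads stood behind each library is unknown. Values are listed below in the order of replicates 1, 2 and 3. Fold changes are differences of log2(FPKM + 1) between Med23KO and Ctrl, a scale that understates the change of low genes. The targeted gene Med23 had 5.10, 5.86 and 4.23 FPKM in Med23KO libraries and 10.4, 11.7 and 10.2 FPKM in Ctrl libraries, with a log2 fold change of -0.96 (limma adjusted p = 0.0197). Its call was lost in 5 of the 6 fits that left out 1 library, that is, for each library left out other than Med23KO replicate 3, with adjusted p-values in limma up to 0.108. Of the markers of muscle stem cells and myoblasts, Pax7 had 60.3, 53.0 and 32.4 FPKM in Med23KO libraries and 57.7, 46.6 and 34.5 FPKM in Ctrl libraries, and Myod1 had at least 551 FPKM in all 6. The 8 genes of this list summed to 975 to 1726 FPKM in Med23KO libraries and 1127 to 1807 FPKM in Ctrl libraries, but single genes lay on either side. Itga7, a laminin receptor subunit, averaged 58.1 FPKM in Med23KO libraries and 98.5 FPKM in Ctrl libraries without overlap (limma adjusted p = 0.0515), and the cadherin gene Cdh15 averaged 32.0 FPKM in Med23KO libraries and 18.2 FPKM in Ctrl libraries with overlap. The 6 immune markers summed to at most 3.17 FPKM in Med23KO libraries and 3.34 FPKM in Ctrl libraries, and the 6 endothelial markers to at most 7.08 FPKM in Med23KO libraries and 10.3 FPKM in Ctrl libraries.

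Most of the replication genes were slightly lower in Med23KO cells, but none passed the test over all genes. All 43 were expressed and tested, and all 43 had a log2 fold change below 0, from -0.51 in E2f2 to -0.00 in Cdt1, with a median of -0.26. In FPKM, Cdt1 averaged 47.8 in Med23KO libraries and 46.9 in Ctrl libraries. Over all 12336 genes tested the median was -0.03, and 54.9% lay below 0. The FPKM of the 43 members summed to 1257, 1245 and 1284 in Med23KO libraries and to 1491, 1534 and 1483 in Ctrl libraries, so the mean sum in Med23KO libraries was 84.0% of that in Ctrl libraries, and the groups did not overlap. Summed over all genes, FPKM was lower too without overlap, at 599738 to 675095 in Med23KO libraries and 697886 to 746973 in Ctrl libraries. Without Rmrp, an abundant noncoding RNA gene, it was 426697 to 476046 in Med23KO libraries and 468565 to 507383 in Ctrl libraries, which overlapped. In 24 of the 43 members each Med23KO library lay below each Ctrl library, against 14.7% of all genes tested. In bulk RNA, fewer cells in S phase and less of these transcripts per cell cannot be told apart.

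With limma and Benjamini-Hochberg adjustment over all genes, 0 of the 43 were called in either direction, where 2.91% of all genes were called, 1.42% as lower. The smallest adjusted p in limma was 0.0612, for Chaf1a. At an unadjusted p under 0.05 in limma, 18 members were lower and 0 higher, against 10.9% of all genes as lower. The authors' deposited table, with its Cuffdiff q-values, called 11 members lower and 0 higher, where 7.04% of the genes it tested were called lower. The size of the difference depended on how the libraries were scaled. Scaled to an equal FPKM sum without the abundant noncoding RNA gene Rmrp, the median of the members was -0.17 and that of all genes 0.06, 40 members lay below 0, against 39.7% of all genes, and 13 had groups without overlap, against 8.24% of all genes. Under quantile normalization 41 members lay below 0 and 15 had groups without overlap, against 54.3% and 13.3% of all genes. Under median scaling the counts of members were 41 and 15 too, against 50.6% and 12.0% of all genes. Cdc6, Mcm10, Cdc45 and Pcna are among the members whose groups overlapped under each of these 3 scalings. Cdt1 and Rfc4 were above 0 under each of them, and Ccne1 as well with the equal sum. With library weights limma called 15 members lower, against 6.89% of all genes, and without Med23KO replicate 3 it called 2, against 3.24%. With the replicate number as a block limma called 21 members lower, against 12.8% of all genes. The labels do not say what the replicate numbers stand for, and the main fit held no block.

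**Figure D1:**
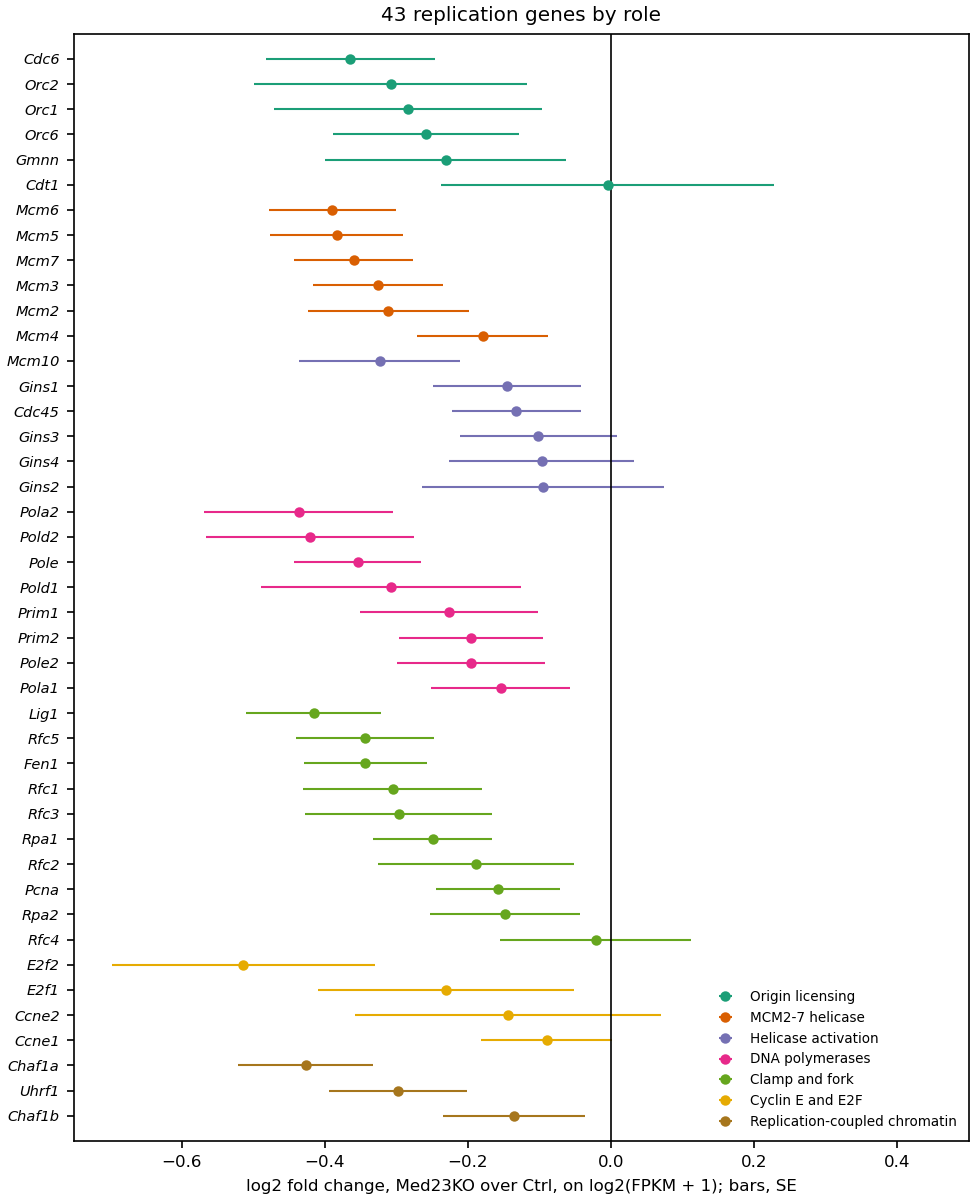
Log2 fold changes (x axis, Med23KO over Ctrl on log2(FPKM + 1)) of the 43 replication genes, grouped and coloured by role; points are limma estimates from 3 libraries a group and bars their SE. All points lie left of 0, the MCM2-7 genes between -0.39 and -0.18, while Cdt1 and Rfc4 lie next to 0.

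Other cell-state markers moved as well. Of the 16 genes of myogenic differentiation, 14 were tested and 6 rose in limma, 0 fell. Over all 12336 genes tested, 184 were called higher. In this list 13 of the 14 had a log2 fold change above 0, while Tnnt2 lay below it, at -0.47 with overlapping groups. The 16 genes summed to 388 to 412 FPKM in Med23KO libraries and 172 to 235 FPKM in Ctrl libraries. The 8 markers of fibro-adipogenic progenitors summed to 217 to 346 FPKM in Med23KO libraries and 159 to 216 FPKM in Ctrl libraries, with 0 of 7 tested past the threshold. All 7 had a log2 fold change above 0, from 0.27 to 0.80, while Pi16, the untested marker of the list, was listed at 0 in the Med23KO libraries and at no more than 0.0352 FPKM in the Ctrl libraries. The part of either list in the lower replication genes was not tested. The 4 markers of proliferating cells outside the members, of which 0 passed the threshold in limma, summed to 314 to 367 FPKM in Med23KO libraries and 319 to 384 FPKM in Ctrl libraries. Mki67, the Ki-67 gene expressed throughout the cell cycle, had 85.3, 84.1 and 88.8 FPKM in Med23KO libraries and 80.1, 82.3 and 96.5 FPKM in Ctrl libraries, and the mitotic kinase gene Cdk1 had 45.2, 46.2 and 46.8 FPKM in Med23KO libraries and 44.8, 47.9 and 45.5 FPKM in Ctrl libraries. Their ranges overlapped, with log2 fold changes of 0.00 (95% interval -0.23 to 0.23) for Mki67 and 0.00 (95% interval -0.19 to 0.20) for Cdk1. The remaining markers of this list lay below 0, also with overlapping ranges. Top2a had a log2 fold change of -0.09 (95% interval -0.39 to 0.20) and Ccnb1 one of -0.13 (95% interval -0.42 to 0.17).

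The subunits of the MCM2-7 ring, the core of the replicative helicase, were lower in each Med23KO library. In all 6 genes each Med23KO library lay below each Ctrl library, as in 14.7% of all genes tested. Mcm4 overlapped under quantile normalization, median scaling and the equal sum without Rmrp, and Mcm6 under the equal sum, which left 4 of the 6. The FPKM of all 6 summed to 299, 303 and 302 in Med23KO libraries and 374, 393 and 373 in Ctrl libraries, 79.2% of the Ctrl mean. As given above, the FPKM sum over all genes was lower in Med23KO libraries too. Mcm6 (mm10 chromosome 1, positions 128331590 to 128359664, minus strand) had 59.7, 59.5 and 65.2 FPKM in Med23KO libraries and 76.5, 81.2 and 84.6 FPKM in Ctrl libraries. Among the 6 subunits this was the largest log2 fold change, at -0.39 (SE 0.0892, limma adjusted p = 0.0658). Mcm5 had 38.1, 41.5 and 40.3 FPKM in Med23KO libraries and 52.0, 56.1 and 49.3 FPKM in Ctrl libraries (log2 fold change -0.38, SE 0.0926, limma adjusted p = 0.0740). Mcm7 had 72.8, 72.9 and 70.3 FPKM in Med23KO libraries and 91.5, 97.7 and 88.9 FPKM in Ctrl libraries (log2 fold change -0.36, SE 0.0837, limma adjusted p = 0.0689). In each of these genes the gap between the groups was wider than the range within either group. Mcm3 had 41.7, 45.3 and 42.6 FPKM in Med23KO libraries and 57.3, 55.2 and 50.8 FPKM in Ctrl libraries. Mcm2 had 38.9, 36.6 and 30.8 FPKM in Med23KO libraries and 44.0, 46.4 and 41.6 FPKM in Ctrl libraries. Mcm4 was closest between groups, with 47.4, 47.6 and 52.6 FPKM in Med23KO libraries and 52.8, 56.6 and 58.2 FPKM in Ctrl libraries (log2 fold change -0.18, SE 0.0918, limma adjusted p = 0.342). With Med23KO replicate 3 left out, Mcm6 passed (limma adjusted p = 0.0348, the lowest of the fits without 1 library, which reached 0.281), and so did Chaf1a among the other members.

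**Figure D2:**
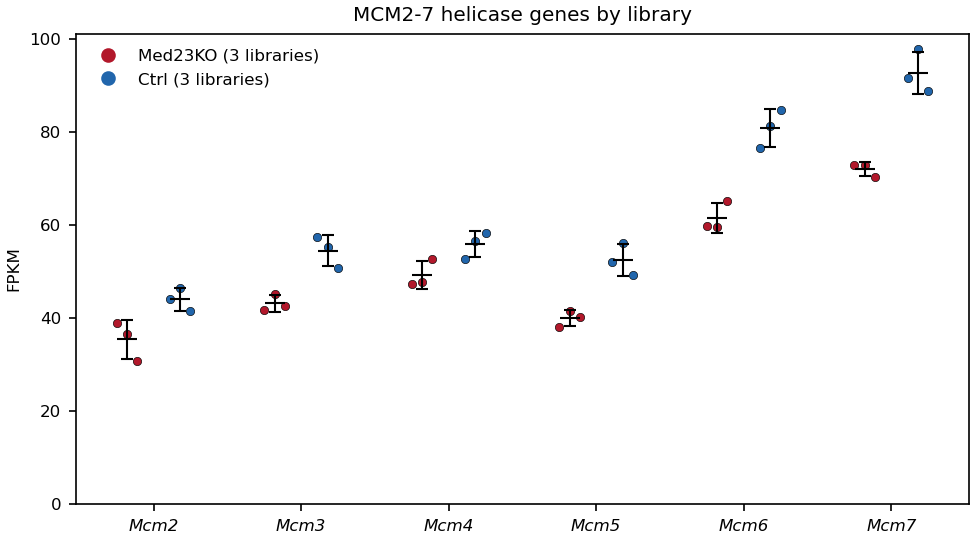
Expression of the 6 genes of the MCM2-7 helicase (y axis, FPKM) in each library; points are single libraries, horizontal marks the mean and bars the SD of 3 libraries. For each gene the Med23KO points lie below the Ctrl points, with the smallest gap in Mcm4, at 52.6 FPKM in the highest Med23KO library and 52.8 FPKM in the lowest Ctrl library.

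The levels of the 6 subunits, which assemble in equal number, differed between genes. The order was Mcm7, Mcm6, Mcm4, Mcm3, Mcm5 and Mcm2 from high to low in both groups. In Med23KO libraries the ranges of neighbours in this order overlapped only between Mcm5 and Mcm2, and in Ctrl libraries they overlapped between Mcm4 and Mcm3 and between Mcm3 and Mcm5. Mcm7 made up 23.9% ± 0.561 of the summed MCM2-7 FPKM in Med23KO libraries and 24.4% ± 0.531 in Ctrl libraries (SD, n = 3 each). Mcm4 made up 16.3% ± 0.959 in Med23KO libraries and 14.7% ± 0.788 in Ctrl libraries.

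The promoters of 4 MCM genes are shown because each of these windows holds at least 2 matches to the binding motif of E2F factors. The windows run from 250 bases before to 50 bases after a RefSeq start site and are written 5′ to 3′ on the gene's strand, with the matches in capitals. They lie in build GRCm38.p6 at chr1:20820263-20820562 (minus strand) for Mcm3, chr8:75109259-75109558 (plus strand) for Mcm5, chr1:128359656-128359955 (minus strand) for Mcm6 and chr5:138171834-138172133 (minus strand) for Mcm7, from RefSeq.
Mcm3: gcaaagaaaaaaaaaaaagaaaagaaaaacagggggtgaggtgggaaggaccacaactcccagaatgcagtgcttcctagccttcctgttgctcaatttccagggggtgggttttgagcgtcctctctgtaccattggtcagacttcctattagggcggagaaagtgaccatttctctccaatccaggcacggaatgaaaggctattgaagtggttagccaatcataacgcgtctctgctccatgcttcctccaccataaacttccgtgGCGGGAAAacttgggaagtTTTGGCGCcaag
Mcm5: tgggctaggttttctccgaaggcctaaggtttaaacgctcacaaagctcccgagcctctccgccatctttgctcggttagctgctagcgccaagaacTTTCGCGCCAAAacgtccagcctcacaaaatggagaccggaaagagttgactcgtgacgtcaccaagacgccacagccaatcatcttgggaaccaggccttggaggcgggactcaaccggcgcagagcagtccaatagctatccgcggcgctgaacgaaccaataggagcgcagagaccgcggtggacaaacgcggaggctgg
Mcm6: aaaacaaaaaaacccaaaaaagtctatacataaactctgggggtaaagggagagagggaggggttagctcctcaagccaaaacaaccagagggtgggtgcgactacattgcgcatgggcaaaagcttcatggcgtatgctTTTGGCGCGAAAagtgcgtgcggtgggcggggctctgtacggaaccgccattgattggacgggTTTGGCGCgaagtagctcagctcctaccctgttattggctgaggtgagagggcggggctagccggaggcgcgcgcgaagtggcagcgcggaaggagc
Mcm7: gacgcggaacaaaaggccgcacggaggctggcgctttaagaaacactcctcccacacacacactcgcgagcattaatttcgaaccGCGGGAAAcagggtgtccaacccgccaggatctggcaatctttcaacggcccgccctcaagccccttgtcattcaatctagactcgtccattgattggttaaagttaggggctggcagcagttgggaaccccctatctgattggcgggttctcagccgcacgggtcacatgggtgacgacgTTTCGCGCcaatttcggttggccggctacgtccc
The motif was searched on both strands as TTTCCCGC, TTTCGCGC, TTTGGCGC and TTTGCCGC. In Mcm5 a pair of matches on opposite strands overlaps, with first bases at -153 and -149 relative to the start site, negative values lying before it. Mcm6 holds such a pair too, at -110 and -106, and a further match at -47. In Mcm3 both matches lie after the start site, at 20 and 39, and in Mcm7 they begin at -165 and at 17. A second window of Mcm7 and the window of Mcm2 held 0 matches, and Mcm4 had no promoter entry. Outside the MCM genes, Rfc3 also had a window with 2 matches, which is not shown.

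Across the members, 34 had a promoter entry, with 42 windows in all. Of these windows 15, or 35.7%, held the E2F motif, against 4.10% of the 11184 windows of tested genes and 2.26% of all 32851 windows. The CCAAT box, the sequence CCAAT bound by NF-Y and searched on both strands, was in 61.9% of the members' windows and in 37.4% of all windows. By gene, the motif was in 15 of the 34, among them Orc1, Cdc6, Cdt1, Lig1, Uhrf1 and E2f2. The log2 fold changes of these 15 had a median of -0.31 and ran from -0.51 to -0.00. The 19 genes without a match had a median of -0.26 and ran from -0.44 to -0.02, so the ranges overlapped. A match describes the letters of the window and shows neither binding nor a cause.

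The origin licensing genes were lower on average but varied more between libraries. Cdc6, the loader that brings MCM2-7 to the origin, had 7.77, 7.80 and 9.40 FPKM in Med23KO libraries and 10.04, 11.7 and 11.2 FPKM in Ctrl libraries. Its groups did not overlap, and it had a log2 fold change of -0.36, with an adjusted p of 0.149 in limma (SE 0.119). The origin recognition subunit gene Orc6 had 17.8, 18.6 and 22.2 FPKM in Med23KO libraries and 20.5, 24.4 and 25.8 FPKM in Ctrl libraries. Orc2, another subunit, had 13.6, 15.8 and 22.9 FPKM in Med23KO libraries and 19.1, 20.9 and 24.2 FPKM in Ctrl libraries. In both, replicate 3 was the highest library of its group, and Med23KO replicate 3 lay inside the Ctrl range. Orc1, the subunit whose protein is present mainly in G1, was the lowest of the 43 members, at 3.01 ± 0.671 FPKM in Med23KO libraries and 3.90 ± 0.897 FPKM in Ctrl libraries (SD, n = 3 each). Cdt1, the partner of CDC6 in loading, had 60.9, 49.96 and 32.5 FPKM in Med23KO libraries and 51.3, 51.6 and 37.7 FPKM in Ctrl libraries. The Med23KO values reached both above and below the Ctrl values, and the interval of the log2 fold change was wide (-0.00, 95% interval -0.55 to 0.54). Gmnn, which encodes geminin, the inhibitor of CDT1, had 20.2, 21.5 and 30.2 FPKM in Med23KO libraries and 25.7, 26.2 and 32.1 FPKM in Ctrl libraries, with replicate 3 again highest in both groups.

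The genes that turn the loaded ring into an active helicase had the smallest median difference. Mcm10, which acts when the helicase is activated and is not part of the ring, had 9.12, 9.82 and 11.2 FPKM in Med23KO libraries and 12.1, 12.7 and 13.5 FPKM in Ctrl libraries. Its log2 fold change, -0.32, was the largest of the group (SE 0.112, limma adjusted p = 0.170). Cdc45 had 16.4, 17.6 and 17.6 FPKM in Med23KO libraries and 18.8, 19.2 and 18.9 FPKM in Ctrl libraries, apart but by a small gap (log2 fold change -0.13, 95% interval -0.34 to 0.08). Gins1 had 12.3, 11.7 and 13.3 FPKM in Med23KO libraries and 12.9, 14.2 and 14.6 FPKM in Ctrl libraries, which overlapped. The 4 GINS genes had log2 fold changes between -0.15 (Gins1) and -0.09 (Gins2), and each had overlapping groups.

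Among the 8 polymerase genes, 6 had groups without overlap, as did 14.7% of all genes tested. Under each of the 3 other scalings this held for 3 of the 8, Pola2, Pold2 and Pole. Pole, the catalytic subunit of the leading-strand polymerase epsilon, had 15.2, 14.6 and 14.7 FPKM in Med23KO libraries and 18.8, 19.7 and 19.1 FPKM in Ctrl libraries (log2 fold change -0.35, limma adjusted p = 0.0807, SE 0.0886). The spread within either group was small beside the gap. Pola2, the accessory subunit of polymerase alpha, which with primase starts new strands, had 14.9, 14.4 and 12.0 FPKM in Med23KO libraries and 20.9, 19.9 and 16.3 FPKM in Ctrl libraries (log2 fold change -0.44, SE 0.132, limma adjusted p = 0.129). Pold2, a small subunit of the lagging-strand polymerase delta, had 23.6, 22.5 and 18.8 FPKM in Med23KO libraries and 33.8, 29.9 and 24.5 FPKM in Ctrl libraries (log2 fold change -0.42, SE 0.145, limma adjusted p = 0.167). In both, replicate 3 was the lowest library of its group. The catalytic subunit gene Pold1 had a log2 fold change of -0.31 with overlapping groups. The primase genes Prim1 and Prim2, the catalytic subunit gene Pola1 and the epsilon subunit gene Pole2 had log2 fold changes between -0.23 and -0.15.

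At the clamp and the fork, Lig1 had the largest difference of the 10 genes. Lig1, the ligase that seals Okazaki fragments (plus strand of mm10 chromosome 7, positions 13277283 to 13311433) was measured at 31.5, 28.8 and 27.3 FPKM in Med23KO libraries and 40.6, 39.0 and 38.0 FPKM in Ctrl libraries (log2 fold change -0.42, SE 0.0942, limma adjusted p = 0.0652). Fen1, the nuclease that trims them, had 27.2, 25.3 and 25.9 FPKM in Med23KO libraries and 33.3, 33.0 and 33.9 FPKM in Ctrl libraries (log2 fold change -0.34, SE 0.0858, limma adjusted p = 0.0804). In both genes the groups were clearly apart. Pcna, the sliding clamp, was the most abundant member, at 244, 240.2 and 273 FPKM in Med23KO libraries and 284, 281 and 279 FPKM in Ctrl libraries. Its groups did not overlap, but Med23KO replicate 3 was close to the Ctrl libraries (log2 fold change -0.16, 95% interval -0.36 to 0.04). Pcna has annotated pseudogene copies, and reads may have been split between them.

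The 5 subunit genes of the clamp loader RFC were at similar levels, with means from 17.6 to 20.2 FPKM in Med23KO libraries and from 20.4 to 25.3 FPKM in Ctrl libraries. Rfc5 had 19.1, 21.6 and 18.7 FPKM in Med23KO libraries and 25.5, 25.6 and 25.0 FPKM in Ctrl libraries (log2 fold change -0.34, SE 0.0961, limma adjusted p = 0.107), with no overlap. Rfc1 and Rfc3 had log2 fold changes of -0.31 and -0.30 and Rfc2 one of -0.19, all with overlapping groups. Rfc4 was nearly level, at 20.2 ± 3.30 FPKM in Med23KO libraries and 20.4 ± 1.54 FPKM in Ctrl libraries (SD, n = 3 each; log2 fold change -0.02, 95% interval -0.33 to 0.29). Of the RPA subunit genes, Rpa1 had 55.9 ± 1.31 FPKM in Med23KO libraries and 66.6 ± 2.38 FPKM in Ctrl libraries without overlap, and Rpa2 had 24.5 ± 2.42 FPKM in Med23KO libraries and 27.2 ± 1.31 FPKM in Ctrl libraries with overlap (SD, n = 3 each).

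Of the drivers of S-phase entry, E2f1, E2f2 and Ccne2 had wide intervals and Ccne1 a narrower one. In 1 of the 4 genes the groups did not overlap, against 14.7% of all genes tested. E2f2, an activator E2F, had 9.18, 8.49 and 6.13 FPKM in Med23KO libraries and 13.6, 12.3 and 9.34 FPKM in Ctrl libraries. Its log2 fold change was the largest of the 43 members, at -0.51 with an adjusted p of 0.180 in limma (SE 0.183), with groups that just missed each other and replicate 3 lowest in both. E2f1, another activator, had 17.6, 14.4 and 10.6 FPKM in Med23KO libraries and 17.0, 17.9 and 14.8 FPKM in Ctrl libraries, which overlapped (log2 fold change -0.23, 95% interval -0.65 to 0.19). Ccne1, a cyclin E gene, had 17.0, 15.7 and 16.1 FPKM in Med23KO libraries and 16.8, 17.7 and 17.6 FPKM in Ctrl libraries (log2 fold change -0.09, 95% interval -0.30 to 0.12). Ccne2, the other cyclin E gene, had 19.8, 25.8 and 32.4 FPKM in Med23KO libraries and 21.8, 30.7 and 33.8 FPKM in Ctrl libraries (log2 fold change -0.14, 95% interval -0.64 to 0.36). In Ccne2 the spread between libraries of a group was larger than the difference between groups.

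The 3 genes that restore chromatin behind the fork had groups without overlap, as did 14.7% of all genes tested, but Chaf1b overlapped under each of the 3 other scalings. Chaf1a, the large subunit of the histone chaperone CAF-1 (plus strand of mm10 chromosome 17, positions 56040439 to 56072289) was measured at 17.2, 15.1 and 16.3 FPKM in Med23KO libraries and 21.7, 22.5 and 22.1 FPKM in Ctrl libraries (log2 fold change -0.43, SE 0.0945, limma adjusted p = 0.0612). With Med23KO replicate 3 left out it passed (limma adjusted p = 0.0494, the lowest of the fits without 1 library, which reached 0.268). Uhrf1, which guides maintenance DNA methylation after replication, had 54.1, 53.3 and 47.5 FPKM in Med23KO libraries and 62.5, 67.7 and 60.7 FPKM in Ctrl libraries (log2 fold change -0.30, SE 0.0959, limma adjusted p = 0.145). Chaf1b, another CAF-1 subunit, had 13.4, 13.6 and 14.4 FPKM in Med23KO libraries and 14.7, 16.5 and 14.6 FPKM in Ctrl libraries, with groups that nearly touched. Mcm7, Lig1, Fen1, Chaf1a and Pole are among 16 of the 43 members whose exons overlap those of another annotated gene, and the counting by strand is not given in the sources used here.

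Set side by side, the medians of all 7 role groups lay below 0. The median log2 fold change was -0.34 for the MCM2-7 genes, -0.30 for the chromatin genes, and -0.27 each for the licensing, the polymerase and the clamp and fork genes. It was -0.19 for the cyclin E and E2F genes and -0.12 for the helicase activation genes. This order depended on the libraries and the scaling. The licensing median was -0.18 without Ctrl replicate 3 and -0.41 without Med23KO replicate 3, where that of the MCM2-7 genes was -0.33. With the equal sum without Rmrp, the median was -0.09 for the cyclin E and E2F genes, -0.03 for the helicase activation genes and -0.17 for the polymerase genes. Relative to the Ctrl mean, the library median of the MCM2-7 genes was -0.36, -0.29 and -0.36 in Med23KO libraries and -0.01, 0.05 and -0.07 in Ctrl libraries. That of the polymerase genes was -0.29, -0.29 and -0.26 in Med23KO libraries and 0.01, 0.03 and -0.04 in Ctrl libraries. For the licensing genes it was -0.41, -0.38 and -0.05 in Med23KO libraries and -0.13, 0.05 and 0.15 in Ctrl libraries, so that Med23KO replicate 3 lay inside the Ctrl range there and in no other role group. The differences between role groups were not tested, since genes of a group are not replicates.

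**Figure D3:**
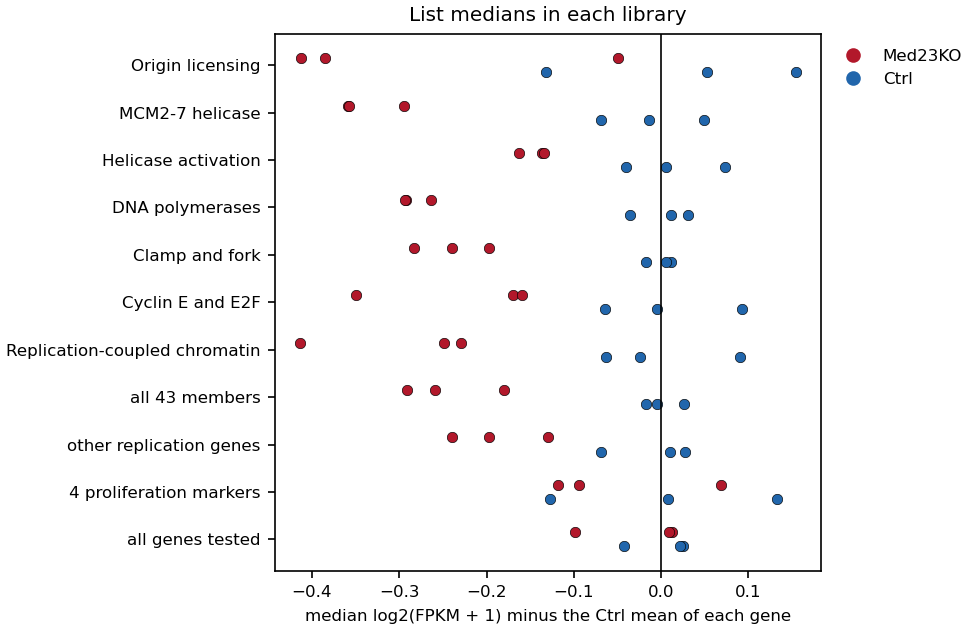
Median over the genes of each list (rows) of log2(FPKM + 1) minus the Ctrl mean of the gene (x axis) in each library; each point is a library. The Med23KO points lie left of the Ctrl points in every role group except origin licensing, where Med23KO replicate 3 is at -0.05, and the groups overlap in the 4 proliferation markers and over all genes tested.

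Ratios of members within a library are left as they are when all genes of the library are multiplied by 1 factor, though quantile normalization can change them. For 8 pairs of genes, chosen after their values were seen, such ratios are described here, with no test. The ratio of Mcm6 to Mcm4 was 1.26, 1.25 and 1.24 in Med23KO libraries and 1.45, 1.44 and 1.45 in Ctrl libraries, a spread far smaller than that of either gene. The ratio of Chaf1a to Chaf1b was 1.28, 1.11 and 1.13 in Med23KO libraries and 1.47, 1.36 and 1.52 in Ctrl libraries. The ratio of E2f2 to E2f1 was 0.522, 0.588 and 0.580 in Med23KO libraries and 0.802, 0.685 and 0.632 in Ctrl libraries. In these 3 pairs the groups did not overlap. The ratio of Cdt1 to Gmnn was 3.01, 2.33 and 1.07 in Med23KO libraries and 1.998, 1.97 and 1.18 in Ctrl libraries, and it differed more between libraries of a group than between groups. The ratios of Pole to Pole2, Pola2 to Pola1, Orc1 to Orc2 and Lig1 to Fen1 overlapped as well.

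**Figure D4:**
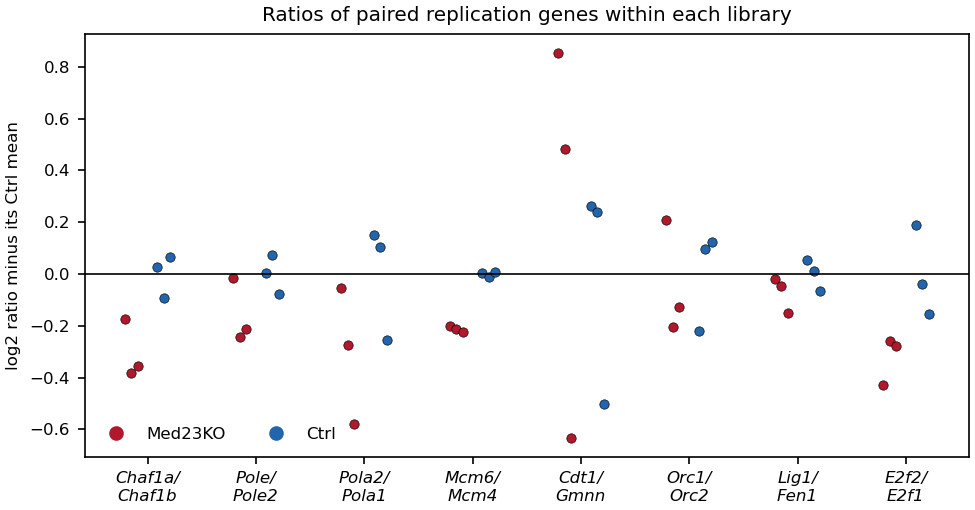
Log2 ratio of 8 pairs of members within each library, minus the mean of the Ctrl libraries (y axis); each point is a library. The Mcm6 to Mcm4 points form tight groups that are -0.21 apart, whereas the Cdt1 to Gmnn points are spread widely in both groups.

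Members also varied between libraries of the same genotype. In 13 members replicate 3 was the lowest library in both groups, among them Cdt1, E2f1, E2f2, Gins2, Pold1 and Pold2, against 39.7% of all genes tested. In another 13 it was the highest in both groups, among them Orc1, Orc2, Gmnn, Ccne2 and Mcm10, against 18.5% of all genes tested. The first set had a median GC content of 54.7% in its longest coding transcripts and the second one of 46.5%. Over the 43 members the difference between replicates 3 and 1, averaged over both groups, had a Pearson correlation of -0.83 with transcript GC content, and over 10613 tested genes one of -0.63. Genes of a library share its depth and preparation, so these are descriptions across genes and not across independent samples. The fold change between genotypes had a correlation of -0.33 with GC content over the 43 members and -0.04 over the 10613 genes. The median log2 fold change was -0.31 in the first set and -0.23 in the second, so both lay below 0.

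**Figure D5:**
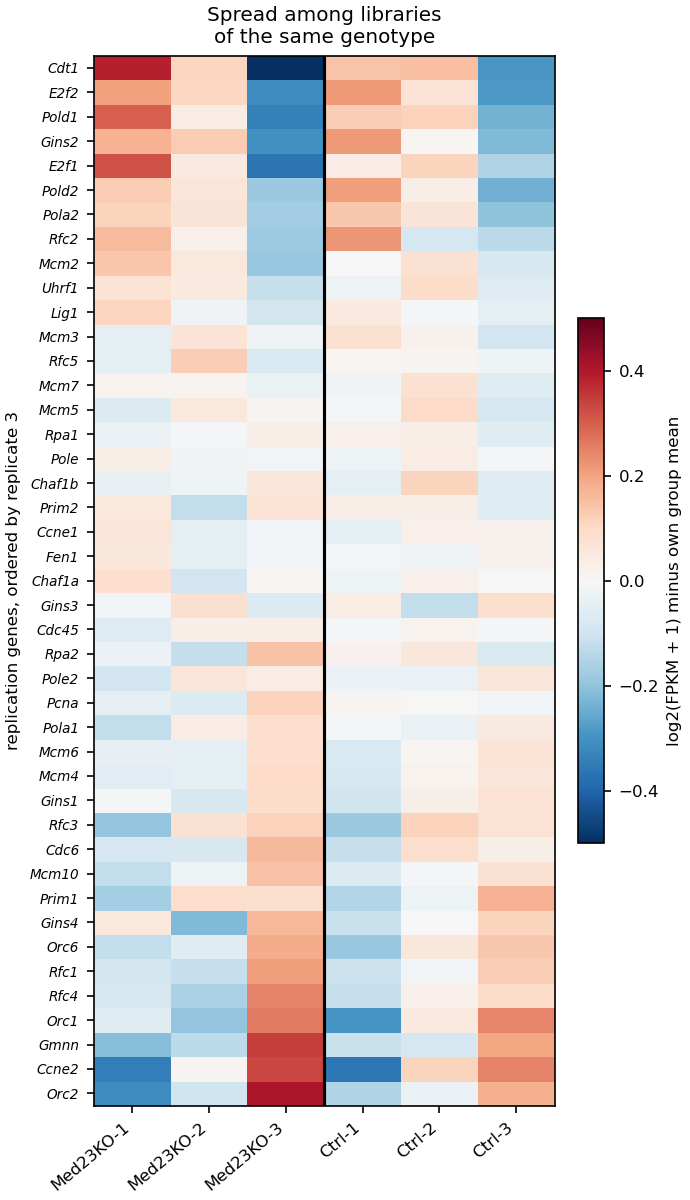
Deviation of log2(FPKM + 1) from the mean of the library's own group (colour) for the 43 members (rows, ordered by replicate 3) in 3 Med23KO and 3 Ctrl libraries (columns). Cdt1, E2f2 and Pold1 at the top are low in replicate 3 of both groups, and Orc2, Ccne2 and Gmnn at the bottom are high there.

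Of 61 replication genes outside the members, all tested, 52 had a log2 fold change below 0, against 54.9% of all genes, with a median of -0.19. In limma 1 fell and 0 rose, a share close to the 1.42% of all genes called lower. The gene that fell was Cdca7, whose protein activates the chromatin remodeller HELLS, with 14.8, 14.5 and 17.6 FPKM in Med23KO libraries and 22.5, 24.5 and 28.5 FPKM in Ctrl libraries (log2 fold change -0.65, limma adjusted p = 0.0419, SE 0.126). The groups were far apart, but the call was lost under 10 of 15 alternatives, among them each fit without 1 library other than Med23KO replicate 3 (limma adjusted p-values from 0.00242 to 0.205). The genes of nucleotide supply Dut and Tk1, which encode dUTPase and thymidine kinase, had log2 fold changes of -0.38 each (limma adjusted p = 0.0994 for each). Dut had 20.9, 24.5 and 21.5 FPKM in Med23KO libraries and 28.8, 31.4 and 27.8 FPKM in Ctrl libraries. Tk1 had 43.9, 42.7 and 37.2 FPKM in Med23KO libraries and 55.8, 56.6 and 49.9 FPKM in Ctrl libraries. Rrm2, which encodes a subunit of ribonucleotide reductase, had 381 ± 38.0 FPKM in Med23KO libraries and 363 ± 25.1 FPKM in Ctrl libraries (SD, n = 3 each; log2 fold change 0.07).

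Of 13 further genes of licensing and origin firing, 6 were lower without overlap, against 14.7% of all genes tested. Among these 6, Recql4, Topbp1 and Mcmbp had log2 fold changes of -0.38, -0.26 and -0.23. At the fork, Rnaseh2a, a subunit of the nuclease that removes RNA from DNA, had 9.14, 10.6 and 8.42 FPKM in Med23KO libraries and 11.6, 15.7 and 13.2 FPKM in Ctrl libraries (log2 fold change -0.48, SE 0.141, limma adjusted p = 0.123). Wdhd1 and Rpa3 had log2 fold changes of -0.36 and -0.37. Of the other E2F factors and their partners, the atypical repressor gene E2f8 had 12.1, 11.8 and 9.53 FPKM in Med23KO libraries and 15.3, 16.9 and 13.4 FPKM in Ctrl libraries. Tfdp1, the dimer partner of E2F proteins, had 69.6, 67.7 and 67.4 FPKM in Med23KO libraries and 81.1, 84.3 and 79.7 FPKM in Ctrl libraries (log2 fold change -0.26, SE 0.0803, limma adjusted p = 0.138). Both were without overlap, and 5 of the 14 genes of this list were lower without overlap, against 14.7% of all genes tested. E2f5 had a log2 fold change of -0.39 with groups that overlapped slightly. Of the 14 genes of this list 5 lay above 0. Among them, Rb1, the retinoblastoma gene that restrains E2F, averaged 12.7 FPKM in Med23KO libraries and 11.0 FPKM in Ctrl libraries. Its relative Rbl2 had a log2 fold change of 0.06 and Tfdp2, another dimer partner, one of 0.08. All 3 were higher without overlap, as were 1233 of all 12336 genes tested. Cdk2 and E2f3 had log2 fold changes of 0.18 and 0.03, with groups that overlapped. The histone-related genes Nasp and Slbp had log2 fold changes of -0.39 and -0.20. None of these passed the threshold in limma. The authors' Cuffdiff q-values called 10 of the 61 genes lower and 0 higher, where 7.04% of all genes so tested were lower. Among the 10 were Cdca7, Dut, Tk1, Recql4, Rnaseh2a, Wdhd1, E2f8 and Nasp.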

How the data were processed

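RNA of 6 libraries was measured, 3 Med23KO and 3 Ctrl, grouped by their titles. Per the labels' protocols, poly(A) RNA was made into strand-specific libraries. The submitters' processing notes name FastQC, cutadapt, STAR and Cuffdiff as tools and mm10 as build. The versions, the annotation and the strand setting of the counting are not given. The authors deposited FPKM per library for 32973 genes, as Cuffdiff scales them, and Cuffdiff p-values and q-values, from which the authors' calls are quoted. Since FPKM values are no counts, limma was fitted to their logarithm. The sum of FPKM was 599738 to 675095 in Med23KO libraries and 697886 to 746973 in Ctrl libraries, of which Rmrp made up 173041 to 205244 in Med23KO libraries and 225416 to 239590 in Ctrl libraries. Of 12368 genes listed by Ensembl identifier alone, 12316 were named from GENCODE vM21.

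Genes whose mean reached 1 FPKM were tested on log2(FPKM + 1) with limma 3.58.1 in R 4.3.3 (mean-variance trend, genotype as the single factor, two-sided, Benjamini-Hochberg adjustment, threshold 0.05). The members and lists were chosen with earlier results of these data known. All members are named. Values per library are given for the MCM2-7, cyclin E and E2F genes and for the 3 members with the smallest limma p in the other role groups. Of the other replication genes, the 3 with the smallest p per list are named, except 1 that is not reported here; Orc1, Cdt1, Gmnn, Pcna, Itga7, Cdh15, Cdk1, Rrm2, Rb1, Rbl2, Tfdp2 and the gene ratios were added after their values were seen. On simulated data for this comparison, with 12336 genes, 37.3%, 64.2% and 100% of genes changed 1.5-fold, 2-fold and 4-fold were recovered, with 5 false among 139 calls. Simulated noise was independent between genes.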

Additional observations from a re-analysis of the deposited data

How the results depend on the processing

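Under 9 alternatives that kept all libraries and under each fit without 1 library, the median log2 fold change of the members stayed below 0. It was -0.17 with the FPKM sum without Rmrp made equal, -0.31 with library weights, and from -0.30 to -0.23 without 1 library. The count of members called lower was 0 under 7 limma settings with all libraries, 15 with library weights and 11 by the authors' Cuffdiff q-values, and 0 to 2 without 1 library. Of the other replication genes, 0 were called lower with low values kept, under quantile normalization, under median scaling, with the sum without Rmrp made equal and without the mean-variance trend, 8 with library weights, 10 by the authors' q-values and 0 to 3 without 1 library. Over all genes, 175 were called lower and 184 higher. Lower and higher calls were 84 and 73 without a filter, 850 and 850 with library weights, and 924 and 1130 by the authors' q-values. Higher calls were 298 under quantile normalization, 363 under median scaling and 494 with the sum without Rmrp made equal, with 201, 205 and 158 lower. Without 1 library, 10 to 400 genes were lower and 3 to 754 higher. The log2 fold change of Med23 ran from -1.06 to -0.86 without 1 library. The cause of these shifts was not tested. The estimate of the library weights did not fully converge. With the replicate number as a block, 21 members, 17 other replication genes, and 1577 genes overall were called lower and 1180 higher, where 12.8% of all genes were lower. The labels do not say what the numbers stand for. Pearson r was taken between deviations of same-numbered libraries from their group means. For numbers 1, 2 and 3 it was 0.44, -0.02 and 0.56 across all genes tested, and 0.76, 0.19 and 0.88 across the members. Over all genes, Ctrl replicate 2 had an r of -0.04, -0.02 and 0.04 with Med23KO replicates 1, 2 and 3. The value for number 2 thus cannot decide on pairing, and deviations within a group of 3 are not independent. Med23KO replicate 2 correlated best with Ctrl replicate 1 in both sets, at 0.34 and 0.52. The depth of the libraries is unknown, so its part in the precision cannot be judged. The intervals and p-values in limma rest on the spread of 3 libraries a group.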
